A study of Homo sapiens with 12 samples.

Results

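Clustered histone genes were followed as a family: the genes whose symbol starts with HIST1 to HIST4 and goes on with H1, H2A, H2B, H3 or H4. The rule looked only at the symbol and took 71 of the 36762 genes in the count tables. There were 6 H1, 17 H2A, 18 H2B, 15 H3 and 15 H4 genes. Cluster 1 on chromosome 6 held 55 of them, cluster 2 on chromosome 1 held 12, cluster 3 on chromosome 1 held 3, and cluster 4 on chromosome 12 held only HIST4H4. GENCODE release 29 lists all 71 as protein coding.

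The RNA came from UCLA1, a human embryonic stem cell line, studied as undifferentiated cells (hESC) and as incipient mesoderm-like cells (iMeLC), an intermediate on the way to primordial germ cell-like cells. Control lines (CTRL) were set against lines whose TET1 gene lacks its catalytic domain (CDKO); TET1 oxidises methylated cytosine in DNA. Both genotypes were sampled at both stages, with 3 libraries in each of the 4 groups. The iMeLC libraries carry the line names CTRL1101, CTRL1106 and CTRL1109, and CDKO1102, CDKO1105 and CDKO1312, and all lines share the UCLA1 background. The hESC count columns carry the genotype and a number from 1 to 3 but no line, so no hESC library can be linked to an iMeLC library. Nothing in the labels says whether each line is a single clone or whether a replicate is a separate culture of another origin, so p-values measure only the spread between these libraries.

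Histone proteins package DNA: H2A, H2B, H3 and H4 form the nucleosome core and H1 binds the linker DNA between nucleosomes. The clustered genes are the replication-dependent ones, transcribed mainly while DNA is copied, and most of their mRNAs have no introns and end in a conserved stem-loop, bound by SLBP, in place of a poly(A) tail. Embryonic stem cells divide fast and spend much of the cycle in S phase, so these mRNAs are plentiful in them. The libraries were made from total RNA with a kit that does not need a poly(A) tail, so transcripts with and without a tail could both be counted.

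The stem-loop was looked for as 16 bases, and it was found in the annotated transcripts of 31 members; many of the others are annotated only from start to stop codon, which leaves the end of the transcript out. The sites of 6 members are shown because they span the family's range in these data, from HIST3H2A and HIST4H4 of the small clusters to members of cluster 1 and HIST2H2BE of cluster 2. Capitals mark the 16-base stem-loop, and the sequences are those of the GENCODE 29 transcripts.
HIST1H2AC: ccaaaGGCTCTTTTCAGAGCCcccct
HIST1H2BC: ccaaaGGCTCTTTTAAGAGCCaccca
HIST1H4E: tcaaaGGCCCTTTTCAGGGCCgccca
HIST2H2BE: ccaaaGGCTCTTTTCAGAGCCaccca
HIST3H2A: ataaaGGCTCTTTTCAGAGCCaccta
HIST4H4: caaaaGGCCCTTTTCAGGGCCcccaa
The 2 H4 genes shown carry the same stem-loop, and its arms differ from those of the H2A and H2B genes shown.

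RefSeq promoter sequences of 300 bases, on GRCh38.p14, were matched for 65 members. They were searched on both strands for TATAAA, the usual core of the TATA box, for CCAAT, the box bound by the factor NF-Y, and for ATTTGCAT, the octamer bound by OCT1 and OCT4. TATAAA was present in 44 of the 65 (67.7%) against 11.95% of all 27305 promoters of that length, CCAAT in 55 (84.6%) against 35.7%, and ATTTGCAT in 25 (38.5%) against 1.802%. The motifs split by histone type. CCAAT was found in all matched H1, H2A, H2B and H3 promoters (6, 16, 18 and 12) but in 3 of 13 for H4. The octamer was found in 14 of 18 H2B and 11 of 16 H2A promoters and in none of the H1, H3 or H4 promoters. Members' promoters had a median of 11 CpG dinucleotides, range 3 to 27, against 14 for all promoters, and a median GC content of 43.3% against 58.3%. A match is a stretch of letters and not a measured binding site.

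The promoters of 5 members are printed because the results below turn on these genes. HIST1H2BK had the highest H2B level per length, and HIST1H2AL, HIST1H1B and HIST1H4L are members of a run of neighbours that varied between control libraries. HIST1H2BO lies beyond that run and varied less. Capitals mark matches to the 3 motifs on either strand, and overlapping matches run together.
HIST1H2BK, chr6:27146809-27147108, minus strand: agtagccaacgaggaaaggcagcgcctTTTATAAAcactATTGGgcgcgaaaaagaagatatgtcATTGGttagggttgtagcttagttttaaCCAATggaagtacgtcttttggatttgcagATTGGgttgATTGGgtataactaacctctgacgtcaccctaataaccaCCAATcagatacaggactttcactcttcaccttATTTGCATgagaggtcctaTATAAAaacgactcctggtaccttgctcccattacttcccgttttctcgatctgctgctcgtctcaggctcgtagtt
HIST1H2AL, chr6:27865067-27865366, plus strand: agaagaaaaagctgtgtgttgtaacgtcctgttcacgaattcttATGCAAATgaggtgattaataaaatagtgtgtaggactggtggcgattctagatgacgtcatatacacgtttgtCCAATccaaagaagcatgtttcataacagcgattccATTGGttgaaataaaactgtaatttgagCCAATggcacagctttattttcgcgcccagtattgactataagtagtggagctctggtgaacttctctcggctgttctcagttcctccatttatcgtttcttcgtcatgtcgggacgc
HIST1H1B, chr6:27867539-27867838, minus strand: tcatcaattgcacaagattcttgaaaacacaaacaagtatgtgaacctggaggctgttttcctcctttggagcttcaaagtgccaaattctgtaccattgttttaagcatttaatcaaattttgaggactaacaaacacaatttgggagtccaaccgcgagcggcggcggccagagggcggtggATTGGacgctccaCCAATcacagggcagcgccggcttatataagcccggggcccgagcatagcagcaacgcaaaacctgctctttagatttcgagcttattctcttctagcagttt
HIST1H4L, chr6:27873485-27873784, minus strand: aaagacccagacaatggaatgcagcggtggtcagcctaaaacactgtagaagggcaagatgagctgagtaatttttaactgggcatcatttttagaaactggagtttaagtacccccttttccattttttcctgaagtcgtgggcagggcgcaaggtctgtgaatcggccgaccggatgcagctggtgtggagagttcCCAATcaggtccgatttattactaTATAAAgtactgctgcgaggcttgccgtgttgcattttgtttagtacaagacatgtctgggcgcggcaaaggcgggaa
HIST1H2BO, chr6:27893175-27893474, plus strand: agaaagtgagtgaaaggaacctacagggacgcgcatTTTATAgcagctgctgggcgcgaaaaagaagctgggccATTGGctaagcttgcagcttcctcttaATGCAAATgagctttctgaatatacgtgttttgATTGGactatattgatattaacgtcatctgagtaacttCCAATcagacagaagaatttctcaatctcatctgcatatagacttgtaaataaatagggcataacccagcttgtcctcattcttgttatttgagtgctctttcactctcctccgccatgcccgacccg
HIST1H4L has TATAAA starting 28 bases and CCAAT starting 52 bases before the start site, and no octamer. HIST1H2BK has the octamer 46 bases and TATAAA 27 bases before it. HIST1H2AL and HIST1H2BO both have the octamer in reverse orientation, and neither HIST1H2AL nor HIST1H1B has TATAAA in this window.

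Depth differed by stage: hESC libraries held 12517593 to 18855099 counts, while those of iMeLC held 52121702 to 109479071. Levels are given in CPM, counts relative to the library total, after TMM scaling of all 12 libraries together, and per kilobase of annotated exon where genes are compared. TET1, the edited gene, was at 293, 334 and 298 CPM in CTRL hESC and 363, 387 and 323 in CDKO hESC. It was at 293, 332 and 306 CPM in CTRL iMeLC and 328, 354 and 308 in CDKO iMeLC, with log2 differences of 0.25 (edgeR adjusted p = 0.209) and 0.09 (adjusted p = 0.577). A count per gene does not separate the catalytic exons, so TET1 does not check the labels here. Pluripotency markers (5 genes) summed to 4752 to 5252 CPM in CTRL hESC, and mesendoderm markers (4 genes) to 44.4 to 476 CPM in CTRL iMeLC against 5.45 to 25.5 in CTRL hESC; the lowest iMeLC value was that of CTRL1106. In CDKO hESC 1 library stood apart: the mesendoderm sum was 11.4, 19.0 and 91.7 CPM and the definitive endoderm sum (4 genes) 9.58, 13.2 and 129, against 5.13 to 20.2 for endoderm in CTRL hESC. The mesendoderm sum of CDKO hESC 3 was thus above that of CTRL1106 iMeLC. Without CDKO hESC 3, no member was called between genotypes in hESC, where 0.136% of all genes were called higher and 0.096% lower. Between stages in CDKO, also without it, 33 members were called lower and 3 higher, against 21.5% and 27.1% of all genes. Without CTRL1106, 2 members were called higher and 1 lower between genotypes in iMeLC, against 0.155% and 0.228% of all genes. Between stages in CTRL, also without it, 33 members were called lower and 2 higher, against 22.4% and 30.5% of all genes.

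Many members are near copies of each other, and the treatment of reads that fit several genes was not given in the sources used here. Of the 71, 35 shared no 50-base stretch with another member, 24 shared some, and 12 shared over 50% of their stretches. The median level was 118 CPM in the group that shared none, 201 CPM in the middle group and 7.61 CPM in the 12 that shared most, so the levels of those 12 may be understated and are uncertain. HIST1H3D had no count in any library; its exons overlap another gene on the same strand, as do those of 6 other members, and 10 members overlap a gene on the opposite strand.

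Clustered histone transcripts made up between 0.854% and 1.67% of all counts. The share was 1.59%, 1.62% and 1.27% in CTRL hESC 1, 2 and 3, and 1.67%, 1.57% and 1.53% in CDKO hESC. The iMeLC lines CTRL1101, CTRL1106 and CTRL1109 gave 0.854%, 1.19% and 1.02%, and the lines CDKO1102, CDKO1105 and CDKO1312 gave 0.874%, 0.989% and 0.944%. CTRL and CDKO overlapped within each stage, and every iMeLC library was below every hESC library in this share. The ratio of the group means, CDKO over CTRL, was 1.06 ± 0.146 in hESC and 0.916 ± 0.161 in iMeLC (n = 3 per group). The ± of each ratio carries over the SDs between libraries of both groups and is not the SE of a ratio of means. The ratio of iMeLC over hESC was 0.684 ± 0.143 in CTRL and 0.588 ± 0.0455 in CDKO. On TMM-scaled CPM, where a library's other abundant transcripts weigh less, the same stage ratios were 0.867 ± 0.180 and 0.796 ± 0.0732. On that scale the stages overlapped: CTRL1106 iMeLC, at 12970 CPM in all members, was above CTRL hESC 3 (10780) and CDKO hESC 3 (12792). In bulk RNA, fewer cells in S phase and less histone RNA per cell cannot be told apart.

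**Figure D1:**
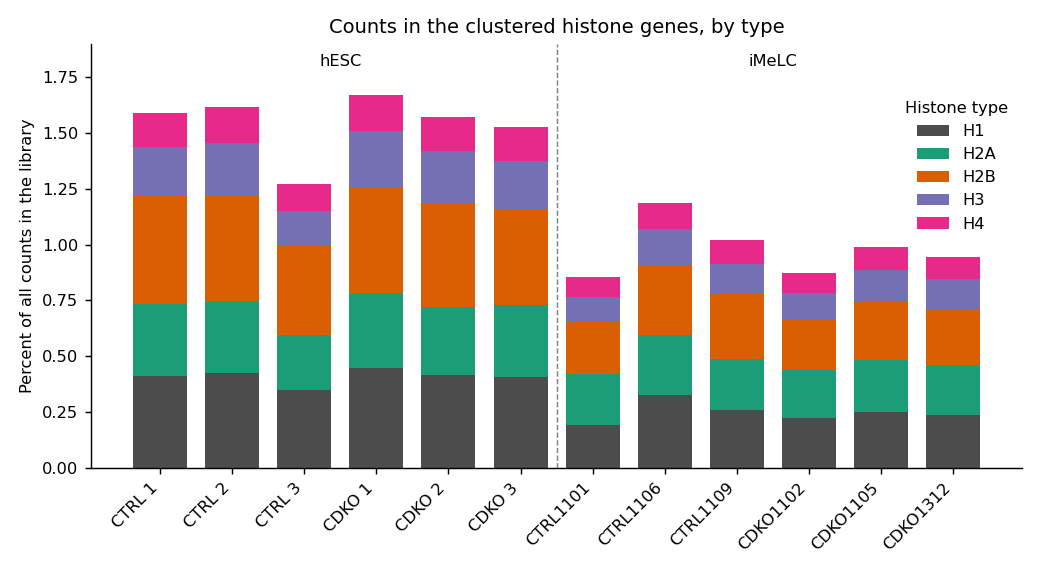
Percent of all counts in each of the 12 libraries taken by the clustered histone genes, with the parts of H1, H2A, H2B, H3 and H4 stacked. The hESC libraries lie between 1.27% and 1.67% and the iMeLC libraries between 0.854% and 1.19%, and H2B and H1 take the largest parts in hESC.

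H2B and H1, the latter with only 6 genes, were the largest parts of the family's counts in hESC; in iMeLC H1 was above H2A in every library but CTRL1101, and above H2B in CTRL1106. H2B made up 29.5% to 31.5% of member counts in CTRL hESC and 26.5% to 28.7% in CTRL iMeLC. H1 made up 25.9% to 27.5% in CTRL hESC and 22.3% to 27.5% in CTRL iMeLC. H2A moved the other way, from 19.2% to 20.2% in CTRL hESC to 22.4% to 26.7% in CTRL iMeLC. H3 took between 12.3% and 15.1%, and H4 between 9.43% and 10.6%, over all 12 libraries.

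Per kilobase of exon, the H1 gene HIST1H1B had the highest mean of all members in CTRL hESC, CDKO hESC and CDKO iMeLC, and the H2A gene HIST1H2AJ in CTRL iMeLC (1233 ± 56.7). In hESC the mean of HIST1H1B was 1571 ± 659 CPM per kilobase in CTRL and 2105 ± 124 in CDKO (SD, n = 3 each), and in iMeLC 1170 ± 589 and 1674 ± 90.9. HIST1H1E, another somatic linker histone, was at 1424 ± 31.0 in CTRL hESC, below HIST1H1B, and at 1211 ± 196 in CTRL iMeLC, above it, in both cases within the spread of HIST1H1B. The leading core histone genes in CTRL hESC were HIST1H2BK (1251 ± 192) and HIST1H3B (1238 ± 157), whose levels did not differ beyond their spread. HIST1H2AJ (956 ± 195) and HIST1H2AE (790 ± 104) led H2A, HIST1H2BO (723 ± 97.4) came after HIST1H2BK in H2B, and HIST1H3I (718 ± 469) after HIST1H3B in H3. The leading H4 genes were lower on this measure, with HIST1H4D at 472 ± 86.5 and HIST1H4C at 365 ± 53.7 CPM per kilobase. In the mean of both genotypes these 10 genes led their types in iMeLC as well. By group the order varied. In CTRL iMeLC the second H3 gene was HIST1H3F and not HIST1H3I (343 ± 268), and in CDKO iMeLC HIST1H4L exceeded HIST1H4D. The order per kilobase also depends on annotated exon length, which for many members covers only the coding stretch. HIST1H4D had 312 exon bases and HIST1H4I 1294, with means of 141 and 314 CPM over the 12 libraries.

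**Figure D2:**
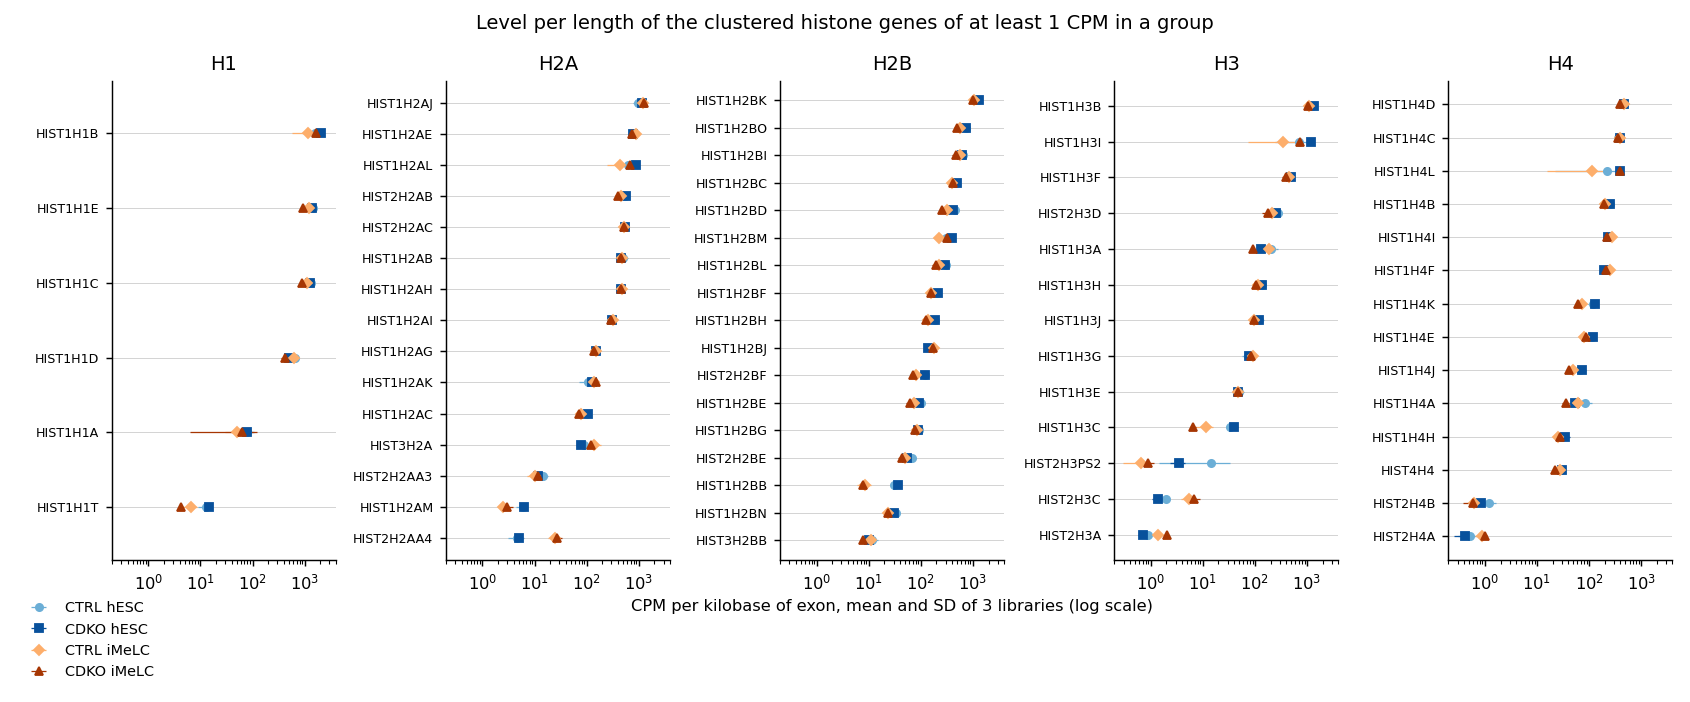
Level in CPM per kilobase of annotated exon (log axis) of the members of at least 1 CPM in a group, 1 panel per histone type, with a point for the mean of each group and bars of 1 SD over 3 libraries (a lower bar is cut at 0.1 of the mean where the SD exceeds 0.9 of it). HIST1H1B leads H1 with 1571 in CTRL hESC and HIST1H4D leads H4 with 472, and the long bars belong to few genes, among them HIST1H3I and HIST1H4L in CTRL and HIST1H1A in CDKO iMeLC.

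Of the 71, 34 were above 100 CPM in every library, 52 were above 10 CPM in every library and 6 were under 1 CPM in every library. Of the 4 genes known from male germ cells, the testis H2A and H2B genes HIST1H2AA and HIST1H2BA and the testis H3 gene HIST3H3 were under 1 CPM in all 12 libraries. The testis linker histone HIST1H1T was detected, at 11.02, 6.27 and 9.77 CPM in CTRL hESC and 11.1, 10.6 and 10.3 in CDKO hESC. Its level was 3.52, 3.98 and 6.45 CPM in CTRL iMeLC and 3.12, 3.25 and 2.92 in CDKO iMeLC.

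No member was called in the comparison that the series is about, CDKO against CTRL, in either stage. In hESC 65 members were tested with edgeR's quasi-likelihood test at an adjusted p of 0.05, with 0 called higher and 0 lower, against 0.598% of all genes called higher and 0.714% lower. Their median log2 difference was 0.04, and 7 had an unadjusted p under 0.05. DESeq2 called 1 lower and none higher, where it called 1.81% of all genes lower and 1.78% higher. In iMeLC 67 members were tested, with 0 called higher and 0 lower, against 0.08% and 0.265% of all genes. The median there was -0.11, 11 had an unadjusted p under 0.05, and DESeq2 called 1 higher and 3 lower, where it called 3.56% of all genes higher and 4.27% lower.

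The libraries of CDKO and CTRL were also compared for overlap in the members tested. In hESC 1 member was higher in all 3 CDKO libraries than in any CTRL library and 3 were lower, against 8.09% and 14.2% of all genes. In iMeLC 5 were higher and 6 lower of 67, against 12.3% and 14% of all genes. All 4 member shares lie below the background. The test of whether the genotype difference itself differed between stages called 0 of 67 in each direction, against 0.0148% and 0.00494% of all genes. In it 4 members had an unadjusted p under 0.05. Leaving out CTRL1101 gave 1 of 65, HIST1H3C, lower by 1.33 on the log2 scale. In that fit 0.946% of all genes were called lower and 1.39% higher.

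**Figure D3:**
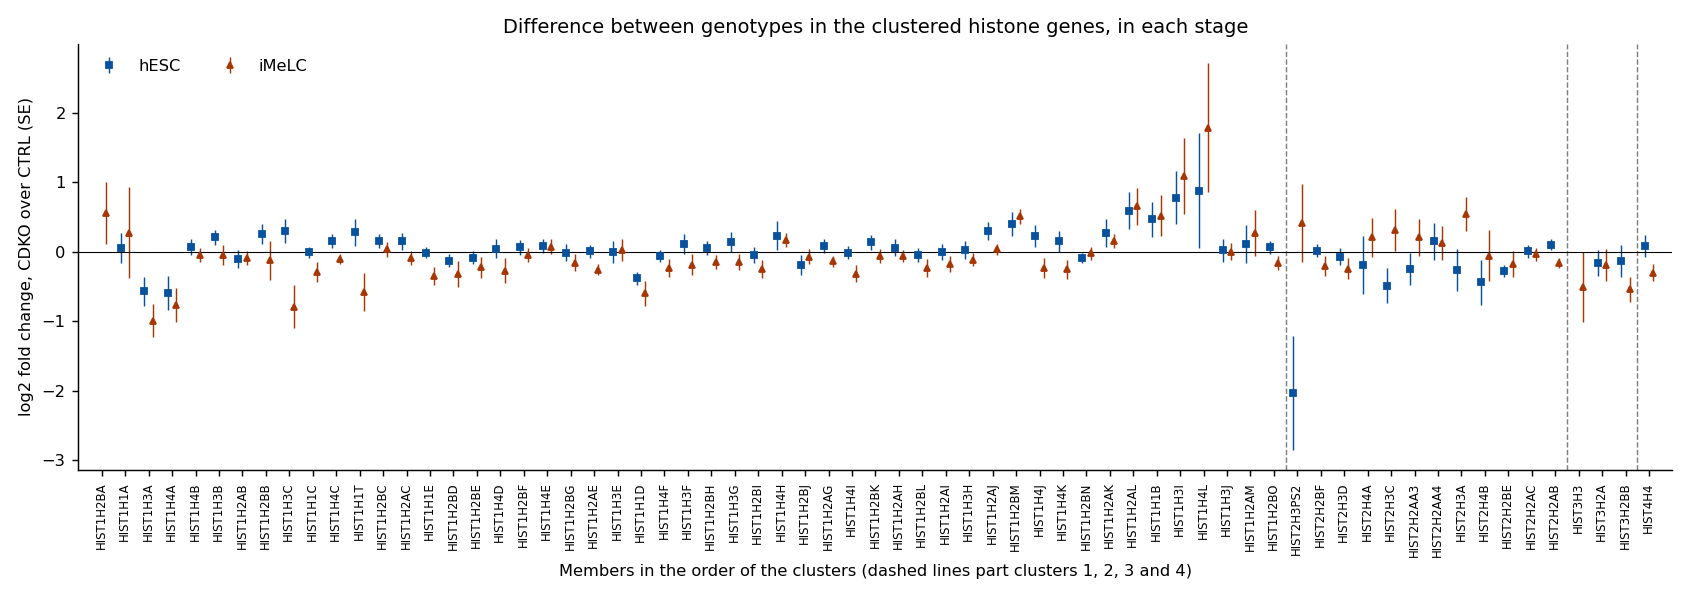
Log2 difference of CDKO against CTRL, with its SE as a bar, for each tested member in genome order within clusters 1 to 4, in hESC (squares) and iMeLC (triangles). No member passed the adjusted threshold, and most values lie near 0. The highest is HIST1H4L at 0.88 in hESC and 1.79 in iMeLC, the last of 4 neighbours that all lie above 0. The lowest is HIST2H3PS2 at -2.04 (SE 0.82) in hESC, which ran from -2.51 to -0.11 when 1 library was left out.

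Among the members nearest to the threshold, 4 are described here that were chosen after their values were seen. HIST1H1D, a somatic linker histone, was at 483, 406 and 438 CPM in CTRL hESC and 353, 343 and 293 in CDKO hESC. In iMeLC it was at 313, 446 and 499 CPM in CTRL and 232, 309 and 288 in CDKO. The CDKO libraries were below the CTRL libraries in both stages, without overlap. The log2 difference was -0.38 (SE 0.09, edgeR adjusted p = 0.0818) in hESC and -0.60 (SE 0.18, adjusted p = 0.154) in iMeLC. The DESeq2 call in hESC was HIST1H1D, at an adjusted p of 0.00615, and DESeq2 gave 0.0351 in iMeLC.

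HIST1H3A, an H3 gene near the start of cluster 1, was at 112, 55.0 and 85.6 CPM in CTRL hESC and 61.0, 59.1 and 44.8 in CDKO hESC. In iMeLC it was at 69.1, 51.7 and 106 CPM in CTRL and 39.8, 36.3 and 37.9 in CDKO. The groups overlapped in hESC and did not in iMeLC, with log2 differences of -0.57 (SE 0.21, edgeR adjusted p = 0.227) and -0.99 (SE 0.23, adjusted p = 0.124). HIST1H4A, the H4 gene 778 bases further along on the same strand, had log2 differences of -0.60 (adjusted p = 0.269) and -0.77 (adjusted p = 0.165). HIST1H2BM, an H2B gene, was at 89.6, 90.7 and 74.6 CPM in CTRL iMeLC and 114, 131 and 118 in CDKO iMeLC, without overlap, a log2 difference of 0.51 (SE 0.11, adjusted p = 0.104). DESeq2 called HIST1H3A and HIST1H4A lower and HIST1H2BM higher in iMeLC.

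HIST1H1A, the linker histone gene beside HIST1H3A, differed most within CDKO iMeLC rather than between genotypes. It was at 82.4 CPM in CDKO1102, 10.3 in CDKO1105 and 27.6 in CDKO1312, a range of 7.97-fold, and at 21.5, 49.2 and 29.3 in CTRL1101, CTRL1106 and CTRL1109. It was also chosen after its values were seen.

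A run of 4 adjacent genes near the end of cluster 1 varied widely between control libraries and little between CDKO libraries. Over all genes, too, control libraries mostly differed more from each other. The chi-square per gene between libraries was 7.892 to 17.72 in CTRL hESC and 4.044 to 8.674 in CDKO hESC. It was 97.06 to 180.5 in CTRL iMeLC and 19.75 to 29.68 in CDKO iMeLC, and it also grows with depth. The run holds HIST1H2AL, HIST1H1B, HIST1H3I and HIST1H4L, an H2A, an H1, an H3 and an H4 gene, and was singled out after its values were seen. It covers 8156 bases of chromosome 6, from 27865355 to 27873510 on GRCh38. The next member, HIST1H3J, starts 16871 bases further on. HIST1H4L was at 69.7, 135 and 1.67 CPM in CTRL hESC 1, 2 and 3, the last from 37 counts, and at 121, 128 and 118 in CDKO hESC. The CTRL iMeLC lines, in the order given above, had 44.5, 62.8 and 1.63 CPM, the last from 160 counts, and the CDKO iMeLC lines 109, 130 and 137. In each stage 1 control library was at or under 1.67 CPM, while all 6 CDKO libraries were above 100 CPM.

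The 3 neighbours had the same library lowest in hESC and in iMeLC, at a smaller range. HIST1H3I was at 264, 501 and 120 CPM in CTRL hESC and 504, 517 and 455 in CDKO hESC, and at 127, 257 and 37.9 in CTRL iMeLC and 281, 322 and 296 in CDKO iMeLC. HIST1H1B was at 1187, 1448 and 574 CPM in CTRL hESC and 1530, 1399 and 1372 in CDKO hESC. In iMeLC it was at 569, 1260 and 562 in CTRL and 1072, 1194 and 1153 in CDKO. CTRL hESC 3 and CTRL1109 were lowest for every gene of the run, and CTRL1101 was close to CTRL1109 for HIST1H1B and for HIST1H2AL (137 and 119 CPM). CTRL hESC 2 and CTRL1106 were within or near the CDKO range for HIST1H1B, HIST1H3I and HIST1H2AL, and CTRL1106 was below it for HIST1H4L.

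The fold between the highest and the lowest CTRL library was 81.1 in hESC and 38.4 in iMeLC for HIST1H4L, 4.19 and 6.79 for HIST1H3I, 2.52 and 2.24 for HIST1H1B, and 2.61 and 2.18 for HIST1H2AL. Among the CDKO libraries these folds ran from 1.08 to 1.25. The members on either side varied less. Before the run HIST1H2BN gave 1.15 and 1.04 in CTRL and HIST1H2AK 2.004 and 1.17. After it HIST1H3J gave 1.58 and 1.20 and HIST1H2BO 1.30 and 1.08. HIST1H2AM, between HIST1H3J and HIST1H2BO, had a mean of 1.72 CPM, and its folds are not given here. Of the members at the start of cluster 1, HIST1H1A, HIST1H3A and HIST1H4A also lay at or above the 95th percentile (99.4, 95.1 and 95.7). CTRL hESC 3, which was low in most members, was the lowest CTRL hESC library for HIST1H2BN, HIST1H2AK, HIST1H3J and HIST1H2BO. Across the 9996 genes with a mean of at least 10 CPM, the SD of log2 CPM within groups of HIST1H4L was at the 99.9th percentile, that of HIST1H3I at 99.4, HIST1H1B at 97.5 and HIST1H2AL at 97.4. The median SD was 0.20 over the 54 members of that level and 0.14 over all 9996 genes. None of the 4 genes shared many stretches with another member (4.07% of 50-base stretches for HIST1H2AL, 0 for the other 3), but HIST1H2AL overlaps an exon of HIST1H2BN on the same strand.

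**Figure D4:**
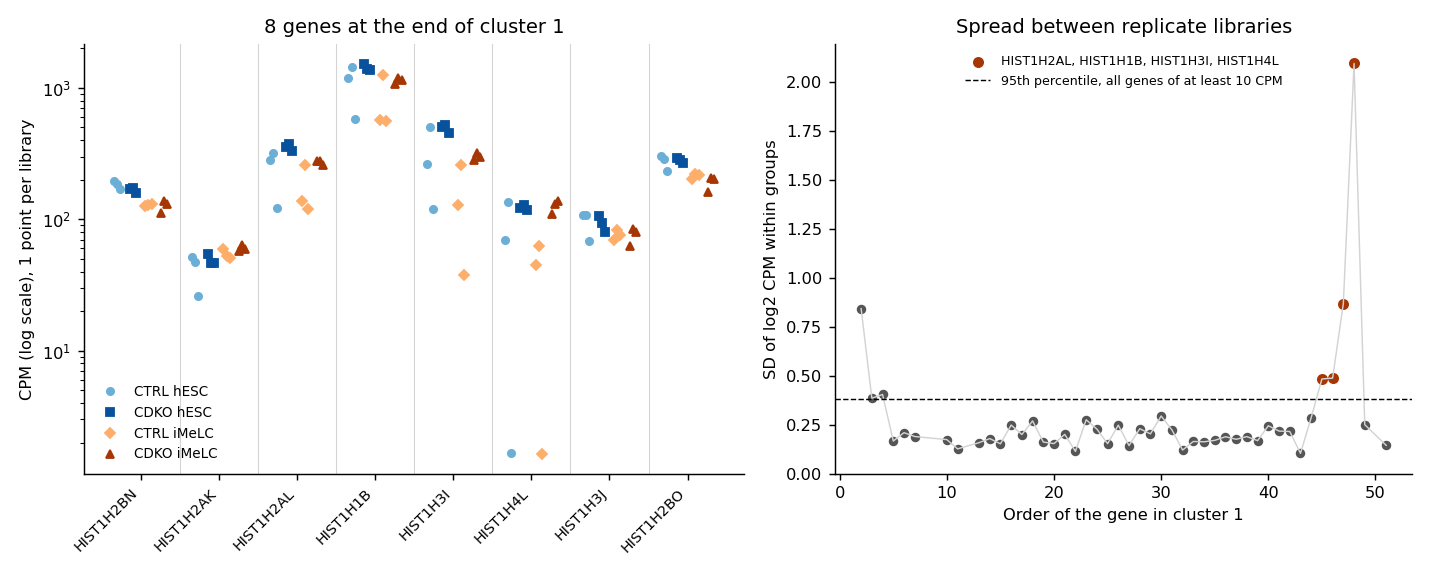
Left, CPM (log axis) with 1 point per library for 8 genes at the end of cluster 1, from HIST1H2BN to HIST1H2BO. HIST1H2AM, a gene at low level between HIST1H3J and HIST1H2BO, is not drawn. Right, the SD of log2 CPM within groups for members of at least 10 CPM, by their order in cluster 1. The 95th percentile of all 9996 genes of that level (0.379) is a dashed line. The CTRL points of HIST1H2AL, HIST1H1B, HIST1H3I and HIST1H4L spread apart, down to 1.63 CPM, and these 4 genes lie above the line.

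The difference between genotypes over the run did not exceed this spread. The log2 difference was 0.88 (SE 0.83, edgeR adjusted p = 0.639) in hESC and 1.79 (SE 0.93, adjusted p = 0.323) in iMeLC for HIST1H4L, and 0.78 (SE 0.38, adjusted p = 0.342) and 1.09 (SE 0.55, adjusted p = 0.310) for HIST1H3I. It was 0.47 (adjusted p = 0.399) and 0.52 (adjusted p = 0.358) for HIST1H1B, and 0.59 (adjusted p = 0.314) and 0.66 (adjusted p = 0.233) for HIST1H2AL. Without CTRL1106, the control line nearest to CDKO over the run, HIST1H1B and HIST1H2AL were called higher in CDKO iMeLC, by 1.01 and 1.08 on the log2 scale. Without CTRL hESC 2, HIST1H3I was called higher in CDKO hESC, by 1.41 (adjusted p = 0.0207). With no filter on low counts all 4 genes of the run were called higher in CDKO hESC, at adjusted p of 1.31e-05 to 0.0234.

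The run also weighed on the family's total. It gave 12.5%, 16.8% and 7.58% of all member counts in CTRL hESC against 17.1%, 17.4% and 17.8% in CDKO hESC, and 8.89%, 14.2% and 6.31% in CTRL iMeLC against 17.0%, 16.6% and 16.7% in CDKO iMeLC. All CDKO libraries were above all CTRL libraries of their stage; the run was chosen for this spread, so the share is a description. The other 67 members gave 1.17% to 1.39% of all counts in CTRL hESC and 1.25% to 1.38% in CDKO hESC. They gave 0.778% to 1.02% in CTRL iMeLC and 0.725% to 0.825% in CDKO iMeLC, so the groups overlapped. CTRL hESC 3 was the lowest of the 6 hESC libraries in 45 of 65 members tested, and CDKO1102 the lowest in iMeLC in 36 of 67. Because hESC columns name no line, whether CTRL hESC 3 and CTRL1109 are the same line cannot be told.

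Between the stages, more members were lower in iMeLC than higher. In CTRL 26 of 67 members fell (38.8%) and 3 rose (4.48%), against 19.9% of all genes called lower and 29.5% higher by edgeR. In CDKO 28 fell (41.8%) and 4 rose (5.97%), against 27.7% and 32.1%. The median log2 difference of members was -0.32 in CTRL against -0.01 over all genes, and -0.43 in CDKO against -0.08. Of the genes that fell, 23 did so in both genotypes. The stages were counted in separate tables with dates and depths of their own, so a stage difference and a table difference cannot be told apart.

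Scaling decided how many members passed. Under upper-quartile scaling the median of all genes moved to -0.39 in CTRL and -0.55 in CDKO, 49 and 54 members were called lower and 2 and 3 higher, against 37.2% and 47.2% of all genes called lower. Relative to the median of all genes, the members' median was -0.31 in CTRL under TMM, -0.31 under RLE and -0.30 under upper-quartile scaling. In CDKO it was -0.35 under all of them. Leaving out 1 library moved it more, to -0.16 without CTRL hESC 1 in CTRL and to -0.20 without CDKO hESC 1 or 2 in CDKO, and with no filter on low counts it was -0.09 in CTRL and 0.09 in CDKO. Without CTRL hESC 1, or without CTRL hESC 2, 17 members were called lower in CTRL, where 14.7% and 14.5% of all genes were.

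H2B was the type in which most members fell: 12 of 18 in each genotype, with a median log2 difference of -0.45 in CTRL and -0.47 in CDKO. Of all genes, 19.9% were called lower in CTRL and 27.7% in CDKO, and 29.5% and 32.1% higher. In H2A 3 of 15 fell in each genotype, near the share of all genes in CTRL and below it in CDKO. Of the H2A genes 2 rose in CTRL and 1 in CDKO, and the medians were -0.001 and -0.09. Under upper-quartile scaling the H2A medians were -0.37 and -0.56. That scaling called 11 of 15 lower in each genotype, against 37.2% and 47.2% of all genes. In H4 5 of 14 fell in each genotype and 1 rose in CDKO, with medians of -0.36 and -0.41. In H3 4 of 14 fell in CTRL and 5 in CDKO, 1 and 2 rose, with medians of -0.23 and -0.40. In H1 2 of 6 fell in CTRL and 3 in CDKO, with medians of -0.38 and -0.48. Relative to the median of all genes, H2A lay between -0.01 and 0.01 and H2B between -0.44 and -0.39 under TMM, RLE and upper-quartile scaling. Whether the types differed from each other was not tested.

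**Figure D5:**
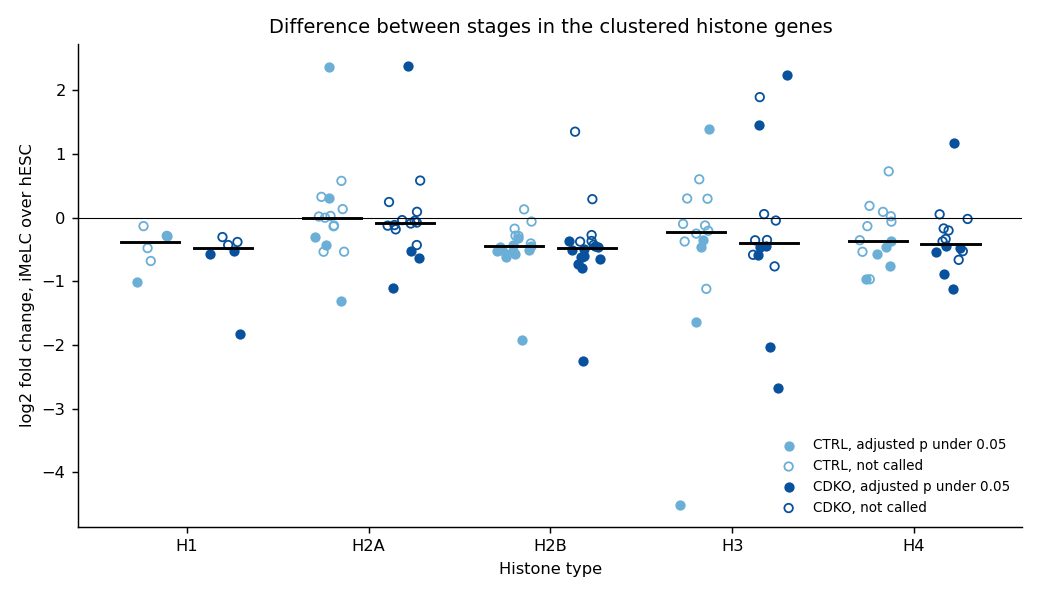
Log2 difference of iMeLC against hESC for each tested member, by histone type, in CTRL (light) and CDKO (dark); filled points passed an adjusted p of 0.05 and black lines are medians. H2B has medians of -0.45 and -0.47 with 12 of 18 called lower in each genotype, against 19.9% and 27.7% of all genes. The H2A medians under TMM scaling are -0.001 and -0.09.

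Apart from HIST2H3PS2, given below with its copies, HIST1H2BB and HIST1H3C fell most in both genotypes; they are neighbours in cluster 1 that encode an H2B and an H3. HIST1H2BB was at 11.9, 10.9 and 12.6 CPM in CTRL hESC and 2.09, 3.70 and 3.92 in CTRL iMeLC, and at 15.1, 14.8 and 11.3 in CDKO hESC and 3.17, 2.93 and 2.80 in CDKO iMeLC. Its log2 difference was -1.92 (SE 0.22, edgeR adjusted p = 8.33e-06) in CTRL and -2.26 (SE 0.22, adjusted p = 1.63e-06) in CDKO. HIST1H3C was at 14.4, 11.1 and 16.2 CPM in CTRL hESC and 2.72, 5.53 and 5.74 in CTRL iMeLC, and at 19.1, 17.2 and 13.6 in CDKO hESC and 2.29, 2.92 and 2.83 in CDKO iMeLC. It fell by 1.63 (SE 0.26, adjusted p = 0.000155) and by 2.68 (SE 0.27, adjusted p = 2.05e-06) on the log2 scale. In both genes every iMeLC library was below every hESC library.

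HIST1H1T, the testis linker histone, fell by 1.01 in CTRL (SE 0.24, edgeR adjusted p = 0.00337) and by 1.83 in CDKO (SE 0.25, adjusted p = 3.04e-05) on the log2 scale. HIST2H2BF, an H2B gene of cluster 2, fell from 438, 394 and 338 CPM to 203, 299 and 293 in CTRL, by 0.62 on the log2 scale (SE 0.14, adjusted p = 0.00214), and by 0.80 (SE 0.14, adjusted p = 0.000257) in CDKO. The groups did not overlap in CTRL. HIST1H2AM fell by 1.31 and 1.11 at no more than 2.99 CPM in any library, so its fall is that of a gene at low level.

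Of the 9 members known to give polyadenylated mRNA as well, 4 fell in CTRL and 6 in CDKO, and none rose. Of all members tested 38.8% and 41.8% fell. Of all genes 19.9% and 27.7% fell, and 29.5% and 32.1% rose. Whether these 9 differed from the other members was not tested. Leaving out 1 library ended 3 of the CTRL calls, with adjusted p up to 0.186 for HIST1H2BK, 0.0778 for HIST1H2AC and 0.0564 for HIST2H2BE, each without CTRL hESC 1 or 2, and 2 of the CDKO calls, with 0.0918 for HIST1H2BC and 0.0917 for HIST4H4 without CDKO hESC 1 (HIST4H4 also without CDKO hESC 2). HIST1H2AC, HIST1H2BD and HIST1H2BK fell in both genotypes, by 0.43 and 0.63, 0.57 and 0.72, and 0.32 and 0.49 on the log2 scale. HIST2H2BE, an H2B gene of cluster 2, fell by 0.53 in CTRL (edgeR adjusted p = 0.0130), with a log2 difference of -0.38 in CDKO (adjusted p = 0.0522). HIST1H2BC and HIST4H4 fell in CDKO, by 0.36 and 0.48. HIST1H1C, a linker histone, fell by 0.52 in CDKO (adjusted p = 0.00247), with a log2 difference of -0.29 in CTRL (adjusted p = 0.0662). HIST3H2A, an H2A gene of cluster 3, had the positive differences in this group, 0.58 in CTRL (adjusted p = 0.0655) and 0.58 in CDKO (adjusted p = 0.0549), and HIST2H2AA3 had -0.54 and -0.04.

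No cluster 3 member passed in the main edgeR fit, with the count filter and all libraries, but some did under other settings. HIST3H2A passed between stages with edgeR and no filter on low counts, at an adjusted p of 0.0151 in CTRL and 0.0116 in CDKO. In CTRL its edgeR adjusted p also went down to 0.0354 when 1 library was left out. HIST3H2BB passed in CDKO under upper-quartile scaling, at 0.0044. HIST3H2A was at 99.6, 89.2 and 53.6 CPM in CTRL hESC and 173, 105 and 96.2 in CTRL iMeLC, and the groups overlapped. In CDKO it was at 64.8, 65.9 and 79.9 CPM in hESC and 116, 122 and 89.5 in iMeLC, without overlap. HIST3H2BB, the H2B gene of the cluster, was at 33.8, 30.4 and 16.2 CPM in CTRL hESC and 30.7, 28.9 and 20.05 in CTRL iMeLC, and its log2 difference between genotypes in iMeLC was -0.54 (edgeR adjusted p = 0.176). HIST4H4, the lone gene of cluster 4 on chromosome 12 (14767999 to 14771131, minus strand), was at 83.3, 88.7 and 55.0 CPM in CTRL hESC and 62.8, 67.5 and 84.8 in CTRL iMeLC.

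The called rises were nearly all in cluster 2 genes with close copies. HIST2H2AA4, an H2A gene, was at 2.44, 3.54 and 1.85 CPM in CTRL hESC and 11.5, 18.1 and 12.3 in CTRL iMeLC, and rose by 2.37 on the log2 scale (SE 0.27, edgeR adjusted p = 9.47e-06) and by 2.38 (adjusted p = 7.01e-06) in CDKO. Its annotated copy HIST2H2AA3 is 100% identical to it in transcript. The sum of the pair went from 10.4 ± 3.02 to 19.6 ± 3.40 CPM in CTRL (SD, n = 3), a ratio of 1.87, and from 9.20 ± 1.37 to 21.6 ± 3.71 in CDKO, a ratio of 2.35. HIST2H3C, an H3 gene, rose by 1.39 and 2.24 on the log2 scale, and its sum with the identical HIST2H3A by 2.36-fold and 4.18-fold. HIST2H3A rose in CDKO, by 1.45, as did the H4 gene HIST2H4A, by 1.17. Exons of HIST2H3C overlap those of HIST2H4A on the opposite strand, and exons of HIST2H3A overlap those of HIST2H4B. Strand handling was not given, so these H3 and H4 genes may share reads, which a sum of copies does not settle. The HIST2H4A call was lost under upper-quartile scaling (adjusted p = 0.103) and without CDKO hESC 3 (adjusted p = 0.0675) or CDKO1105.

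For the H4 pair HIST2H4A and HIST2H4B the sum was 3.24 and 2.85 CPM in CTRL and 2.42 and 3.03 in CDKO, hESC before iMeLC, within the spread in both. HIST2H4B fell by 0.96 on the log2 scale in CTRL, but by 0.587 with an adjusted p of 0.236 without CTRL hESC 2. HIST1H4J and HIST1H4K, identical H4 genes of cluster 1, both fell in both genotypes (HIST1H4J in CTRL with an adjusted p up to 0.23 when 1 library was left out), and their sum was 0.672 and 0.511 of its hESC level in CTRL and CDKO. HIST1H2AJ rose by 0.31 in CTRL (edgeR adjusted p = 0.0443), a call lost under RLE, with DESeq2 and without any single CTRL library other than CTRL hESC 1, and turned to -0.06 by upper-quartile scaling. HIST2H3PS2, an H3 gene with copies, fell by 4.51 in CTRL, where CTRL hESC 2 had 14.7 CPM and CTRL hESC 1 and 3 had 1.66 and 1.49; without that library it fell by 2.57. In CDKO it fell by 2.03 (adjusted p = 0.0462), a call lost without CDKO hESC 1 (adjusted p = 0.115), CDKO hESC 2 or any of the CDKO iMeLC lines.

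Genes that make, carry or replace histones were set beside the members, and no list had a call between genotypes. Of all genes, 0.598% were called higher and 0.714% lower between genotypes in hESC, and 0.08% and 0.265% in iMeLC. Between stages 29.5% of all genes rose and 19.9% fell in CTRL, and 32.1% and 27.7% in CDKO. Under upper-quartile scaling 19.3% rose and 37.2% fell in CTRL, and 20.3% and 47.2% in CDKO. Of 18 S phase genes 12 rose and 2 fell in CTRL, and 13 and 2 in CDKO, with median log2 differences of 0.81 and 0.97. CDC45 and MCM6, which unwind DNA at the fork, rose by 2.17 and 1.98 in CTRL and 2.47 and 2.21 in CDKO. TYMS and RRM1, which supply nucleotides, rose by 1.79 and 1.69, and 1.93 and 1.88. Of 19 genes for histone gene transcription and 3' end processing 9 rose and 4 fell in CTRL, 11 and 3 in CDKO. SLBP, which binds the stem-loop shown above, rose by 1.72 and 1.81, and CPSF3, the nuclease that cuts the transcript's end, by 3.01 and 3.43. Under upper-quartile scaling the S phase medians were 0.43 in CTRL and 0.50 in CDKO, so they stayed above 0 while the clustered histone genes had medians below 0 under TMM, RLE and upper-quartile scaling. The median of the transcription and processing list changed sign with the scaling, from 0.21 and 0.29 under TMM to -0.17 and -0.18 under upper-quartile scaling, where 7 rose and 9 fell in CTRL and 6 and 8 in CDKO.

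Of 15 histone chaperone genes 9 rose and 3 fell in CTRL, 9 and 2 in CDKO; HAT1, which acetylates new H4, rose by 1.97 and 2.08. Of 12 replication-independent histone genes, which lie outside the clusters and have poly(A) tails, 4 rose and 2 fell in CTRL, 6 and 3 in CDKO. Among them H2AFY2, a macroH2A gene, rose by 1.97 and 2.48 and H3F3A, which encodes H3.3, by 0.63 and 0.81. The median of this list also changed sign, from 0.14 and 0.29 to -0.23 and -0.18 under upper-quartile scaling, with 4 up and 5 down in CTRL and 5 each in CDKO. Of 14 mitotic genes 7 rose and 1 fell in CTRL, 9 and 1 in CDKO, and upper-quartile scaling gave 7 and 7, and 7 and 6. For the chaperones it gave 6 and 5 in CTRL and 8 and 6 in CDKO. Of 11 structural RNAs without a poly(A) tail 2 were in the tables: RMRP rose by 1.25 and 0.996, and TERC rose by 0.64 in CTRL, with a log2 difference of 0.19 in CDKO.

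Some markers of other cells moved with the stage. Of 7 fibroblast or feeder markers 5 rose and 1 fell in each genotype, and their sum ran from 369 to 588 CPM in CTRL hESC, 435 to 578 in CDKO hESC, 530 to 1068 in CTRL iMeLC and 804 to 1088 in CDKO iMeLC. Of 4 definitive endoderm markers 1 rose in each genotype. Their sum ran from 5.13 to 20.2 CPM in CTRL hESC and 9.58 to 129 in CDKO hESC. In iMeLC it ran from 9.9996 to 107 CPM in CTRL and 120 to 284 in CDKO, so the stages overlapped in both genotypes. None of these markers was under 1 CPM in every library. Of 5 pluripotency markers 4 fell in each genotype. Their part in the lower histone levels of iMeLC was not tested.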

How the data were processed

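Bulk total RNA of 12 libraries was sequenced, and the authors deposited raw read counts per gene symbol, in 1 table for hESC and 1 for iMeLC. FastQC, cutadapt, edgeR and the build GRCh38 are named per the submitters' processing notes; aligner, counter and strand handling: not given in the sources used here. Columns headed WT and KO in the hESC table were read as CTRL and CDKO. Counts were tested with edgeR 4.0.16 in R 4.3.3 (TMM, filterByExpr, quasi-likelihood test, two-sided, Benjamini-Hochberg over all genes tested, adjusted p of 0.05), within each stage for genotype and over 12 libraries for stage and the interaction. The fit was tested on simulated data. Alternatives were RLE and upper-quartile scaling, no filter on low counts, DESeq2 1.42.0, 12 libraries in 1 fit, and leaving out each library. Replicates were compared by a chi-square of counts, and none agreed within sampling noise. GENCODE 29 gave positions, exons and transcripts for all 71 members. The members and gene lists were chosen with earlier results of these data known. Genes named were TET1, members called between genotypes, the 8 largest called rises and falls per stage comparison, the 2 highest members per type, clusters 3 and 4, the polyadenylated and testis members and up to 4 of each other list; others are stated as chosen after their values were seen. No member was left out; 4 to 6 failed the count filter.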

Additional observations from a re-analysis of the deposited data

How the results depend on the processing

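Genotype calls rested on the settings. In hESC, leaving out the filter on low counts gave 5 members higher and 5 lower in CDKO (1.71% and 1.91% of all genes), and DESeq2 gave 1 lower (1.81%). In iMeLC no filter gave 1 higher and 1 lower (0.593% and 0.779%), DESeq2 1 higher and 3 lower (3.56% and 4.27%), and 12 libraries in 1 fit 2 lower (3.47%). Leaving out 1 library gave 0 to 1 higher and 0 to 3 lower in hESC, the highest without CTRL hESC 2 (1.57% and 1.21% of all genes), and 0 to 2 higher and 0 to 9 lower in iMeLC, with 9 lower without CTRL1101 (5.69%) and 2 higher without CTRL1106 (0.155%). For the interaction it gave 0 to 1 lower and 0 higher, with 1 lower without CTRL1101 (0.946% of all genes). Between stages more members were called lower than higher in each setting. Leaving out 1 library gave 17 to 33 lower and 2 to 4 higher in CTRL. Of all genes 12.6% to 22.4% were then lower and 24.7% to 30.5% higher. In CDKO it gave 21 to 35 lower and 3 to 5 higher, against 21.1% to 27.9% and 26.9% to 30.8% of all genes. Upper-quartile scaling gave 49 and 54 lower (37.2% and 47.2% of all genes), and no filter gave 7 higher in CDKO (19.3%). Without the filter the members' median minus that of all genes was -0.09 in CTRL and 0.09 in CDKO, since more genes of low count entered. The summed level in iMeLC over hESC was 0.867 in CTRL and 0.796 in CDKO on TMM-scaled CPM; leaving out 1 library, the ratio of shares ran from 0.628 to 0.740 and from 0.572 to 0.608. The ratio of CDKO over CTRL ran from 0.991 to 1.11 in hESC and from 0.847 to 0.998 in iMeLC. Of 1022 values over 99 genes and comparisons named, 911 kept direction and side of the threshold, 61 newly passed, 41 no longer passed and 9 reversed. Leaving out 1 library, the log2 difference ran from -0.0079 (without CTRL hESC 2) to 1.57 for HIST1H4L in the interaction, from -0.31 to 0.014 (without CTRL hESC 2) for HIST4H4 between stages in CTRL, from -0.28 to 0.15 (without CTRL hESC 1) for HIST3H2BB between stages in CTRL, and from -0.23 to 0.12 (without CDKO hESC 2) for HIST2H2AA3 between stages in CDKO. The last was 0.011 with no filter, and HIST1H2AJ between stages in CTRL was -0.056 under upper-quartile scaling. The cause was not tested. No paired analysis was possible because the hESC columns carry no line number. Depth was lower in hESC, which limits members of few counts there.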
